A study of Eurytemora affinis with 18 samples.

Results

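The mucin genes examined here were 6 genes of the copepod *Eurytemora affinis*, of 23728 genes counted: LOC111697205, LOC111710342 and LOC111699105 (each named mucin-5AC-like), LOC111716966 (mucin-7-like), and LOC111700935 and LOC111713839 (both mucin-17-like). They were selected because the study listed them as differentially expressed mucins after exposure to tebufenozide (TEB), an insecticide that acts on the ecdysone receptor of insects. LOC111697205 was selected on its change in females at both doses of TEB, and the other 5 genes were selected on their change in males at the higher dose, in each case against controls of the same sex. Those comparisons therefore chose the genes, and their values are given as a description, with no test. Whole adults from the Seine estuary were kept for 72 h in water with solvent and either no TEB (controls), 0.5 µg/L or 50 µg/L of TEB, the doses being nominal. Per the paper, TEB measured in the water was well below nominal at the higher dose. At the lower dose it was below the quantification limit. Each of the 18 mRNA libraries came from a pool of 30 copepods of 1 sex, with 3 replicates in each of the 6 groups: control females and control males, both sexes at 0.5 µg/L, and both sexes at 50 µg/L. All groups, controls included, received the acetone in which TEB was dissolved, and the females carried no eggs.

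Mucins are large proteins whose stretches rich in serine and threonine carry dense O-linked sugar chains, which bind water and form slime or a coat on the surface of cells. In mammals, MUC5AC is a secreted, gel-forming mucin of the airways and stomach, MUC7 is a small secreted mucin of saliva, and MUC17 is anchored in the membrane of intestinal cells. In insects, proteins with mucin domains line the gut as part of the peritrophic matrix. The names of the copepod genes rest on sequence similarity, so the tissue in which each is made is not known from these files.

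Library totals ran from 3882407 to 10468479 counts in males and from 7983412 to 17114866 in females. Levels are counts divided by the library size (CPM) and scaled by TMM factors over all 18 libraries. As they are not divided by gene length, they are not compared between genes, and shares of a sum over genes are compared only between libraries. A High Output flow cell at 75 bp was used for all controls, for the males of the lower dose and for replicates 1 and 2 of its females. Replicate 3 of these females and every library of the higher dose came from another flow cell, of the Mid Output type, with reads of 150 bp. Among males, dose and flow cell cannot be told apart at 50 µg/L. Some male libraries also stood apart in transcripts that were high in females. The summed level of 4 genes of the yolk and germline that were higher in females (vitellogenin-like, 2 vasa-like genes and exuperantia-1-like, of which vasa is known from the gonads of both sexes) was 92.6, 417 and 459 CPM in control males (replicates 1 to 3), 55.7, 332 and 312 CPM in males of the lower dose, and 37.4 to 71.8 CPM in those of the higher dose, against 725 to 1063 CPM over the 9 female libraries. The study listed vitellogenin-like, 1 of the vasa-like genes and exuperantia-1-like as lower in males at the higher dose. The low sum there thus follows in part from the choice of these genes. Vitellogenin-like was at 0 in male replicate 1 at 0.5 µg/L and in male replicates 1 and 2 at 50 µg/L. In whole animals, fewer cells of a type and less RNA per cell cannot be told apart.

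The 6 mucin genes fell into 2 patterns across the groups. LOC111697205 was higher in males than in females and low in exposed females. The 5 genes listed for males were higher in every female library than in any male library, differed little among the female groups, and ranged widely among male libraries of the same group. All 6 genes passed the filter on low counts in both sexes.

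**Figure D1:**
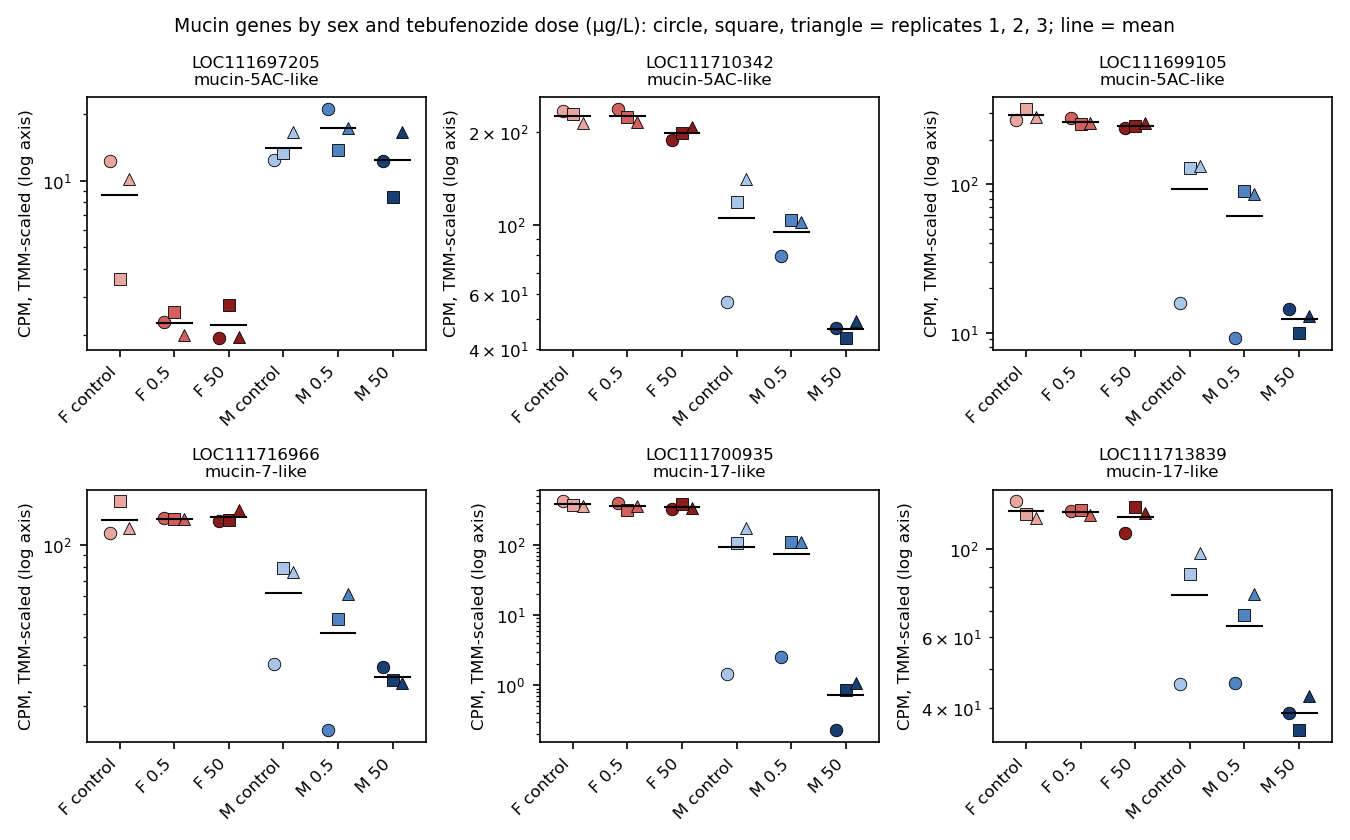
Level of each mucin gene in the 18 libraries, in CPM scaled by TMM (log axis), by sex (F, M) and nominal dose of TEB in µg/L. Points are libraries, with circle, square and triangle for replicates 1, 2 and 3, and lines are group means. LOC111697205 was at 1.94 to 2.76 CPM in the 6 exposed female libraries, and the other 5 genes were lower in all 9 male libraries than in any female library.

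LOC111697205 (mucin-5AC-like) was at 12.2, 3.59 and 10.2 CPM in control females, in the order of replicates 1 to 3. It was at 2.30, 2.55 and 2.01 CPM in females at 0.5 µg/L, and at 1.94, 2.76 and 1.97 CPM in females at 50 µg/L. All 6 exposed libraries were thus below all 3 controls, but control replicate 2 lay far closer to the exposed libraries than to the other two controls. These levels rest on 50 to 229 counts in control females and on 17 to 40 counts in exposed females. In the comparisons that chose the gene, the log2 fold change was -1.89 ± 0.40 (SE, n = 3 per group) at 0.5 µg/L and -1.90 ± 0.41 at 50 µg/L. Both comparisons use the same 3 controls. Groups that did not overlap, with the exposed group lower, were found for 4.74% of the 15555 genes tested in females at 0.5 µg/L and for 11% at 50 µg/L. Leaving out control replicate 2 made the log2 fold change -2.27 at both doses. Without control replicate 1 it was instead -1.58 at both doses. Replicate 3 at 0.5 µg/L, the 1 library of that group on the Mid Output flow cell, was at 2.01 CPM, beside 2.30 and 2.55 CPM on the High Output flow cell.

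In males, LOC111697205 was at 12.4, 13.4 and 16.6 CPM in controls, at 21.2, 13.8 and 17.3 CPM at 0.5 µg/L and at 12.3, 8.42 and 16.6 CPM at 50 µg/L. The 3 male groups overlapped. Males entered none of the comparisons that chose this gene. However, the study did not list it as changed in males at 50 µg/L, and that set it apart from the other mucins. The lack of a call there is thus not an independent test. Genes were called at an adjusted p of at most 0.05 and a change of at least 2-fold (edgeR quasi-likelihood test, Benjamini-Hochberg over all genes), and LOC111697205 was not called in males at either dose, where 0% of the 17492 genes tested were called at 0.5 µg/L (693 with an unadjusted p under 0.05, and 2 called by DESeq2) and 0.732% at 50 µg/L. The log2 fold change was 0.30 at 0.5 µg/L (95% interval -0.42 to 1.03, adjusted p = 0.942, edgeR) and -0.16 at 50 µg/L (-0.90 to 0.58, adjusted p = 0.783). Both intervals included no change, and a 2-fold change lay outside the interval at 50 µg/L but just inside that at 0.5 µg/L. Ordered by mean, the groups ran from males at 0.5 µg/L (17.4 ± 3.71 CPM, SD) through control males (14.1 ± 2.22), males at 50 µg/L (12.4 ± 4.09) and control females (8.67 ± 4.52) to females at 0.5 µg/L (2.29 ± 0.269) and at 50 µg/L (2.23 ± 0.463). Each neighbouring pair in this order overlapped, except that control females lay above females at 0.5 µg/L.

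Transcripts that are high in males moved with LOC111697205 among control females. For 2373 genes at least 8-fold higher in males than in females at 50 µg/L, a list added after the data were examined, the median level was 12.4, 6.07 and 11.2% of the mean of males at 50 µg/L in control females 1, 2 and 3. It was 9.66, 8.26 and 7.50% in females at 0.5 µg/L and 6.27, 8.18 and 6.38% in females at 50 µg/L. Relative to the same mean, LOC111697205 was at 98.5, 28.9 and 81.9% in control females and at 15.6 to 22.2% in exposed females. Both measures were lowest of the 3 controls in replicate 2, but the mucin was far above the median of the list in all 9 female libraries. The part of these transcripts in the result was not tested.

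In females, exposure to TEB left the 5 mucins listed for males close to control levels. Females entered none of the comparisons that chose these genes. However, the study did not list these 5 genes as changed in females, and they were grouped by that. The lack of calls in females is thus not an independent test, and the levels and intervals are a description. LOC111710342 was at 233, 228 and 213 CPM in control females, at 237, 222 and 215 CPM at 0.5 µg/L, and at 188, 198 and 206 CPM at 50 µg/L. LOC111699105 was at 271, 322 and 285 CPM in controls, at 279, 254 and 258 CPM at 0.5 µg/L, and at 239, 247 and 258 CPM at 50 µg/L. For both of these mucin-5AC-like genes the groups overlapped at 0.5 µg/L, whereas all libraries at 50 µg/L were below all controls. LOC111716966 was at 113, 155 and 118 CPM in controls, at 131, 129.8 and 129.6 CPM at 0.5 µg/L, and at 127, 129 and 142 CPM at 50 µg/L. Its controls spanned the values of both exposed groups. LOC111700935 was at 420.4, 372 and 359 CPM in controls, at 391, 317 and 364 CPM at 0.5 µg/L, and at 320.0, 388 and 331 CPM at 50 µg/L. LOC111713839 was at 131, 122 and 119 CPM in controls, at 124, 125 and 121 CPM at 0.5 µg/L, and at 109.5, 127 and 123 CPM at 50 µg/L. Both mucin-17-like genes overlapped between all 3 groups.

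Of the 5 genes, 0 were called in females at 0.5 µg/L, where 0% of the 15555 genes tested were called by edgeR's quasi-likelihood test (468 had an unadjusted p under 0.05, and DESeq2 called 5). The log2 fold changes ran from -0.13 for LOC111699105 (95% interval -0.33 to 0.07) to 0.03 for LOC111716966 (-0.23 to 0.29), with a median of 0.012, against 0.0077 over all genes. At 50 µg/L, 0 of the 5 were called, against 0.00643% of all genes, and DESeq2 called 143 genes of which none was among these 5. LOC111699105 had a log2 fold change of -0.18 (-0.38 to 0.02, adjusted p = 0.446, edgeR) and LOC111710342 of -0.13 (-0.31 to 0.05, adjusted p = 0.533). The other 3 lay between -0.09 and 0.09, and none of the 5 had an unadjusted p under 0.05 at either dose. Over both doses, the 95% intervals of these 5 genes all lay between -0.38 and 0.36. The groups of 2 of the 5 genes did not overlap at 50 µg/L, with the exposed group lower, as for 11% of all genes. At this dose the flow cell differed between the groups compared.

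**Figure D2:**
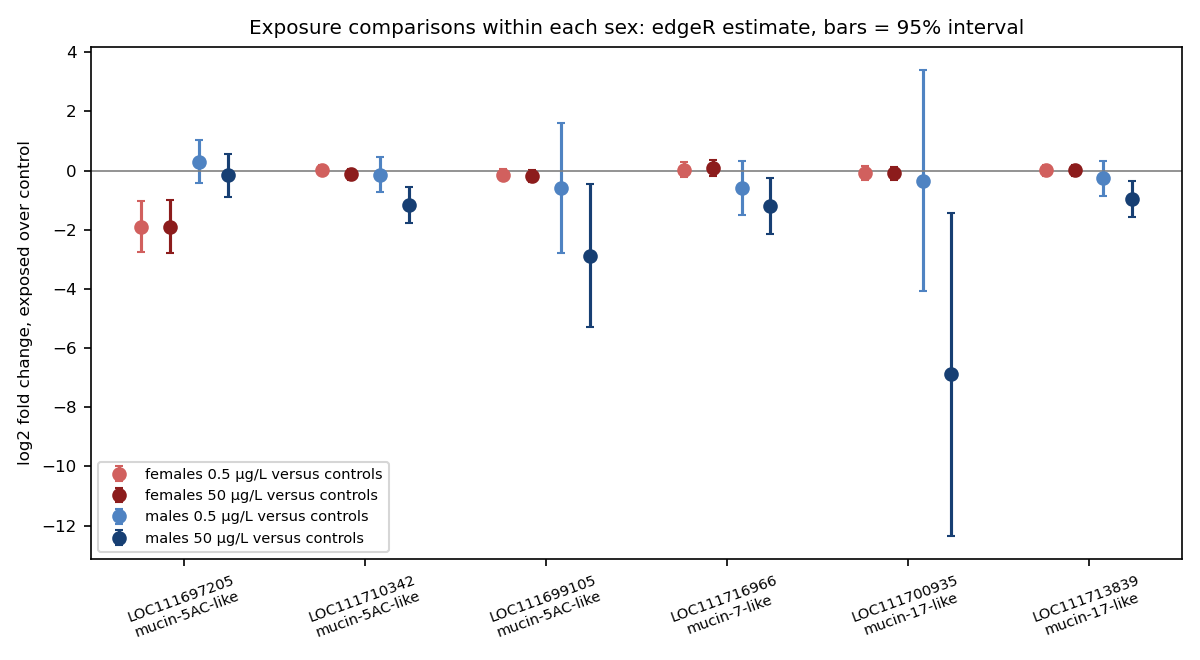
Log2 fold change of each mucin gene over controls of the same sex, by dose (edgeR estimate, bars are 95% intervals, n = 3 per group). The estimates of the 5 genes listed for males lay between -0.18 and 0.09 in females with narrow intervals, and the intervals in males were far wider.

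Between the sexes at 0.5 µg/L, the 5 mucins were higher in females. The male libraries at this dose entered no comparison that chose these genes. As in the control males used for that choice, however, replicates 2 and 3 held more of the transcripts high in females than replicate 1. The fit also takes its spread from all 18 libraries, so the test is not free of the choice. The log2 fold change of females over males was 1.20 ± 0.22 for LOC111710342 (SE, adjusted p = 1.3e-04, edgeR), 1.61 ± 0.37 for LOC111716966 (adjusted p = 9.5e-04) and 2.06 ± 0.72 for LOC111699105 (adjusted p = 0.0194). These 3 genes were called, but LOC111699105 not when only the 6 libraries at 0.5 µg/L were fitted (adjusted p = 0.0598, edgeR). LOC111713839 passed the p threshold but not 2-fold (0.91 ± 0.22, adjusted p = 0.00138). LOC111700935 had the largest estimate of the 5 and the widest spread in males, and was not called (2.23 ± 1.14, adjusted p = 0.0913). The 3 female libraries lay above the 3 male libraries for 5 of 5 genes, as for 37% of the 18110 genes tested, and 20.7% of all genes were called higher in females. The median of the 5 genes was 1.61, whereas that of all genes was -0.54. LOC111697205 went the other way, at -2.96 ± 0.40, in a comparison that includes libraries by which it was chosen. Its groups did not overlap, as for 45.1% of all genes in that direction, and 40.8% of all genes were called lower in females. Without replicate 3 of females, so that all libraries were of 1 flow cell, the estimates of the 5 genes were 0.93 to 2.22 and the same 3 were called.

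In males, the 5 genes were high and low in the same libraries. LOC111710342 (mucin-5AC-like) was at 56.6, 119 and 141 CPM in control males, at 79.6, 104 and 102 CPM at 0.5 µg/L, and at 46.7, 43.2 and 49.0 CPM at 50 µg/L. LOC111699105 (mucin-5AC-like) was at 15.8, 129 and 133 CPM in controls, at 9.16, 89.9 and 85.5 CPM at 0.5 µg/L, and at 14.4, 9.87 and 13.0 CPM at 50 µg/L. Replicate 1 was the lowest library in controls and at 0.5 µg/L for both genes, and for LOC111699105 the level at 50 µg/L lay at that of replicate 1 of the other groups. LOC111716966 (mucin-7-like) was at 30.4, 79.3 and 76.5 CPM in controls, at 15.6, 47.5 and 61.0 CPM at 0.5 µg/L, and at 29.4, 25.8 and 25.0 CPM at 50 µg/L. Its lowest level was in replicate 1 of 0.5 µg/L, not at 50 µg/L. LOC111713839 (mucin-17-like) was at 45.9, 86.4 and 97.4 CPM in controls, at 46.3, 68.4 and 77.2 CPM at 0.5 µg/L, and at 38.7, 35.1 and 42.8 CPM at 50 µg/L. Of the 5 genes, it had the smallest ratio of the highest to the lowest male library.

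LOC111700935, the other mucin-17-like gene, varied most. Control males had 1.47, 106 and 172 CPM (10, 1081 and 1606 counts), males at 0.5 µg/L had 2.53, 109.8 and 111 CPM (16, 846 and 909 counts), and males at 50 µg/L had 0.228, 0.871 and 1.07 CPM (1, 3 and 8 counts). Within control males, the highest library was 117 times the lowest, and at 0.5 µg/L it was 43.8 times the lowest. In the 9 female libraries the gene stayed between 317 and 420.4 CPM.

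At 50 µg/L, the comparison that chose these 5 genes, all 3 exposed libraries were below all 3 controls for 5 of 5 genes, as for 11.6% of the 17492 genes tested in males. The log2 fold changes were -1.17 ± 0.28 (SE, n = 3 per group) for LOC111710342, -2.87 ± 1.02 for LOC111699105, -1.19 ± 0.44 for LOC111716966, -6.88 ± 2.26 for LOC111700935 and -0.96 ± 0.28 for LOC111713839. The median was -1.19, with 0.02 over all genes. LOC111713839 was the member closest to the 2-fold threshold, and LOC111711799, a mucin that was not listed for males, stood at -1.01.

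At 0.5 µg/L, which shares its controls with that comparison, the log2 fold changes were -0.15 for LOC111710342, -0.60 for LOC111699105, -0.59 for LOC111716966, -0.34 for LOC111700935 and -0.26 for LOC111713839. For all 5 genes the exposed males overlapped with controls. As the controls are shared, nothing is read from these values about the choice. The 95% intervals were wide, from -4.06 to 3.39 for LOC111700935 and from -0.74 to 0.44 for LOC111710342, the narrowest. Changes of 2-fold were thus within the interval of 3 of the 5 genes and outside it for LOC111710342 and LOC111713839 (-0.86 to 0.34).

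Ordered by mean, the 5 genes ran down from control males through males at 0.5 µg/L to males at 50 µg/L. The genes were chosen for being lower at 50 µg/L than in these controls, so the order is a description. No dose response is read from it, and its share over all genes was not counted. The first pair overlapped for each gene. The second pair did not overlap for LOC111710342, LOC111700935 and LOC111713839, but did for LOC111699105 and LOC111716966.

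The level of the 5 mucins in a male library followed the level of other transcripts that are high in females. For 551 genes at least 8-fold higher in females than in males at 50 µg/L, a list added after the data were examined, the median level was 4.54, 41.8 and 48.4% of the mean of control females in control males 1, 2 and 3. It was 4.63, 28.6 and 29.0% at the lower dose and 3.74, 3.75 and 5.07% at the higher dose, where it is low by the choice of the list. Control males 2 and 3 and males at 0.5 µg/L 2 and 3 were thus high, and replicate 1 of both groups was near the level at 50 µg/L. On the same scale LOC111699105 stood at 5.39, 44.2 and 45.4% in control males, at 3.13, 30.7 and 29.2% at 0.5 µg/L and at 4.90, 3.37 and 4.43% at 50 µg/L. It was within 4 percentage points of the median of the list in each of the 9 libraries. A shorter list of 52 genes, set by the difference between the sexes at 0.5 µg/L and so low in those males by choice, had medians of 0, 35.9 and 32.6% in control males, 0.254, 6.83 and 7.33% at 0.5 µg/L, and 0% in the 3 libraries at 50 µg/L.

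The other 4 genes departed from that median in either direction. LOC111710342 stood at 25.2, 53.0 and 62.6% in control males, at 35.4, 46.1 and 45.5% at 0.5 µg/L and at 19.3 to 21.8% at 50 µg/L. LOC111716966 stood at 23.6, 61.5 and 59.4% in control males, at 12.1, 36.9 and 47.4% at 0.5 µg/L and at 19.4 to 22.8% at 50 µg/L. LOC111713839 stood at 36.9, 69.6 and 78.4% in control males, at 37.3, 55.1 and 62.2% at 0.5 µg/L and at 28.3 to 34.5% at 50 µg/L. These 3 genes were above the median of the list in all 9 male libraries, including those where the vitellogenin-like gene was at 0. LOC111700935 stood at 0.384, 27.5 and 44.9% in control males, at 0.659, 28.6 and 28.9% at 0.5 µg/L and at 0.0594 to 0.279% at 50 µg/L. It was below 1% in the 5 libraries where the median of the list was lowest. The part of these transcripts in the male results was not tested.

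**Figure D3:**
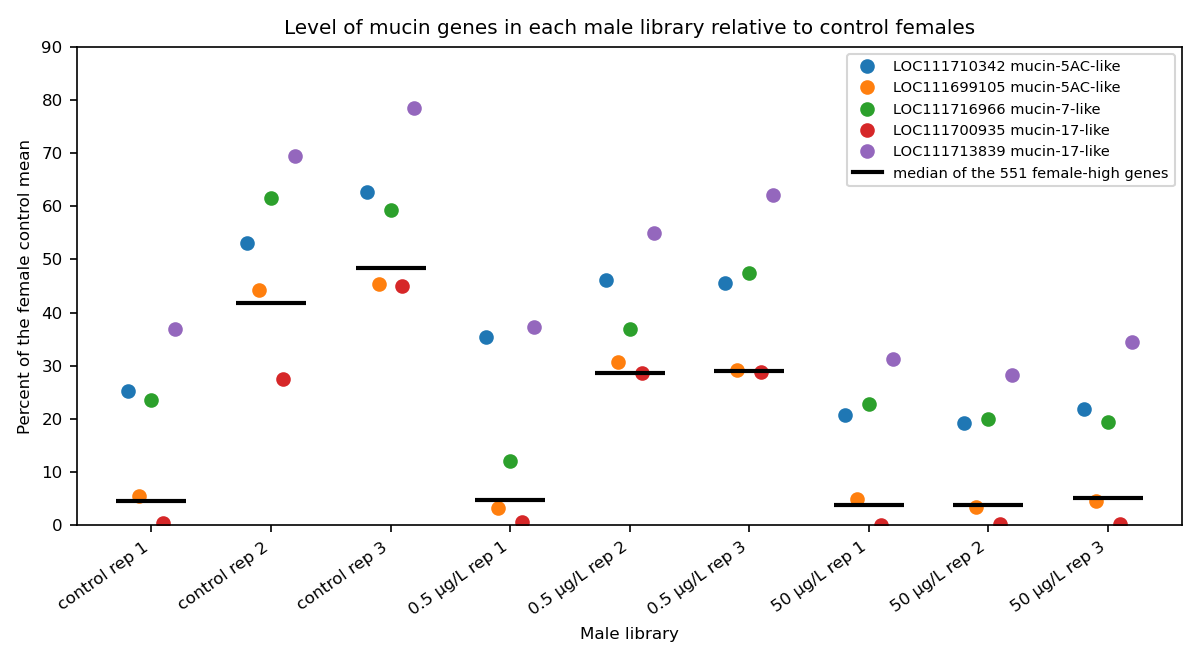
Level of the 5 mucin genes listed for males in each of the 9 male libraries, as a percent of the mean of control females (points), with the median of 551 female-high genes (black lines, chosen at 50 µg/L and so low there). Control replicates 2 and 3 and 0.5 µg/L replicates 2 and 3 were high for both, and LOC111710342, LOC111716966 and LOC111713839 stayed above the line in all libraries.

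Subtracting from each male library the mean of control females times that median, an alternative added after the data were examined, changed the group means unequally. LOC111710342 was then at 34.6 ± 10.8 CPM (SD, n = 3) in control males, 48.6 ± 17.9 at 0.5 µg/L and 36.9 ± 1.84 at 50 µg/L. LOC111713839 was at 37.3 in control males, 38.2 at 0.5 µg/L and 33.7 CPM at 50 µg/L, and LOC111716966 was at 21.4, 14.7 and 21.3 CPM in the same order. LOC111699105 was left with 0.284, 0.898 and 0.143 CPM. For LOC111700935 the subtraction took away more than was measured in all 3 groups (-28.0, -5.12 and -15.3 CPM), so it gives no level for this gene. The subtracted median is low at 50 µg/L by the choice of the list, so these values support nothing about the comparison of the groups.

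The makeup of the signal of the 5 genes also separated the libraries. Their summed level was 983 to 1198 CPM in females, 150, 520 and 620 CPM in control males, 153, 419 and 437 CPM in males of the lower dose, and 115 to 131 CPM in those of the higher dose. LOC111700935 made up 30.3 to 35.97% of this sum in the 9 female libraries, 20.3 and 27.8% in control males 2 and 3, and 26.2 and 25.4% in replicates 2 and 3 of males at the lower dose. In the other 5 male libraries it made up 0.176 to 1.65%. LOC111710342 made up 18.2 to 21.2% of the sum in females and 22.7 to 52.0% in males, and LOC111713839 10.2 to 11.9% and 15.7 to 32.7%. The ranges of both sexes did not meet for these 2 genes and for LOC111700935, while those of LOC111716966 (9.68 to 13.4% in females and 10.2 to 22.7% in males) and LOC111699105 did.

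**Figure D4:**
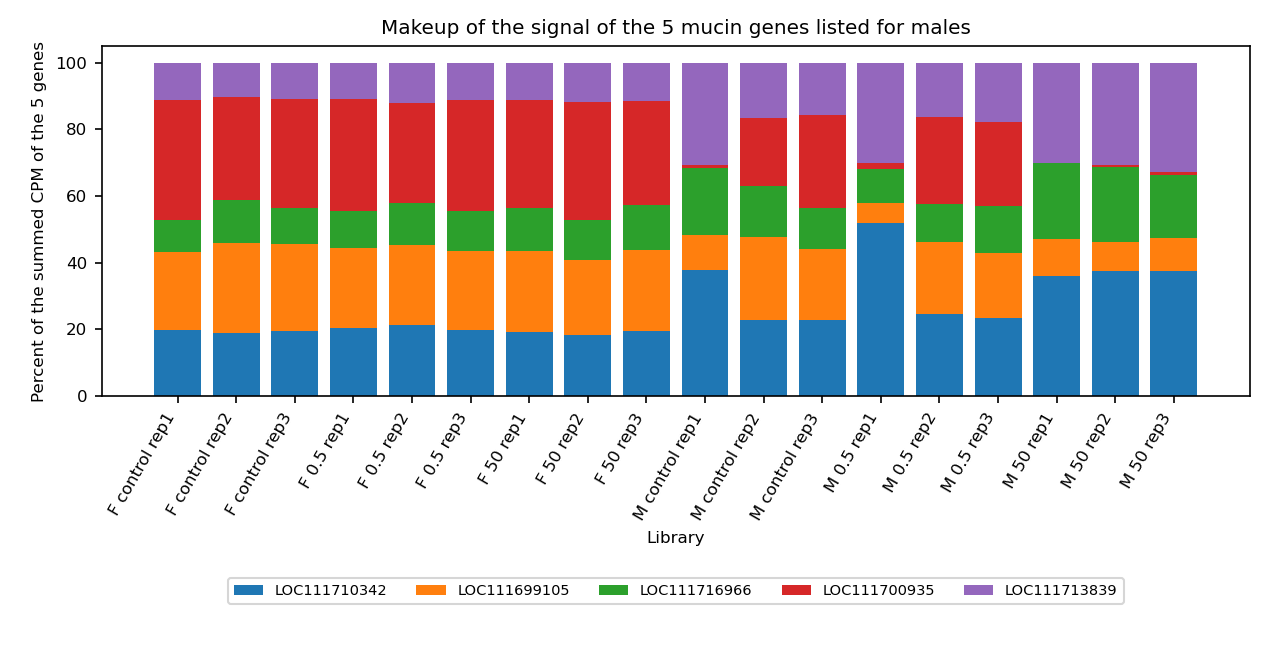
Share of each of the 5 mucin genes listed for males in their summed CPM, for the 18 libraries (bars add to 100%). LOC111700935 (red) held 30.3 to 35.97% in female libraries, 20.3 to 27.8% in 4 male libraries and at most 1.65% in the other 5 male libraries.

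The values at 50 µg/L in males depended on which control libraries were used. Replicate 1 was the lowest control library for all 5 genes. The directions of change without it, and without replicates 2 and 3, thus follow from the levels above and support nothing further. Without control replicates 2 and 3, the remaining control being assumed to vary like the other groups, the log2 fold changes shrank to -0.33 for LOC111710342, -0.38 for LOC111699105, -0.22 for LOC111716966, -0.97 for LOC111700935 and -0.27 for LOC111713839. Without control replicate 1 they grew to -1.46, -3.36, -1.51, -7.44 and -1.21 in the same order. Over all genes, 128 were called with all libraries, 27 without control replicates 2 and 3, and 4077 without control replicate 1. Without replicate 2 alone or replicate 3 alone, the estimates stayed between -0.76 and -6.87. At 0.5 µg/L, leaving out control replicates 2 and 3 turned the estimates of all 5 genes positive, from 0.38 for LOC111716966 to 5.56 for LOC111700935.

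**Figure D5:**
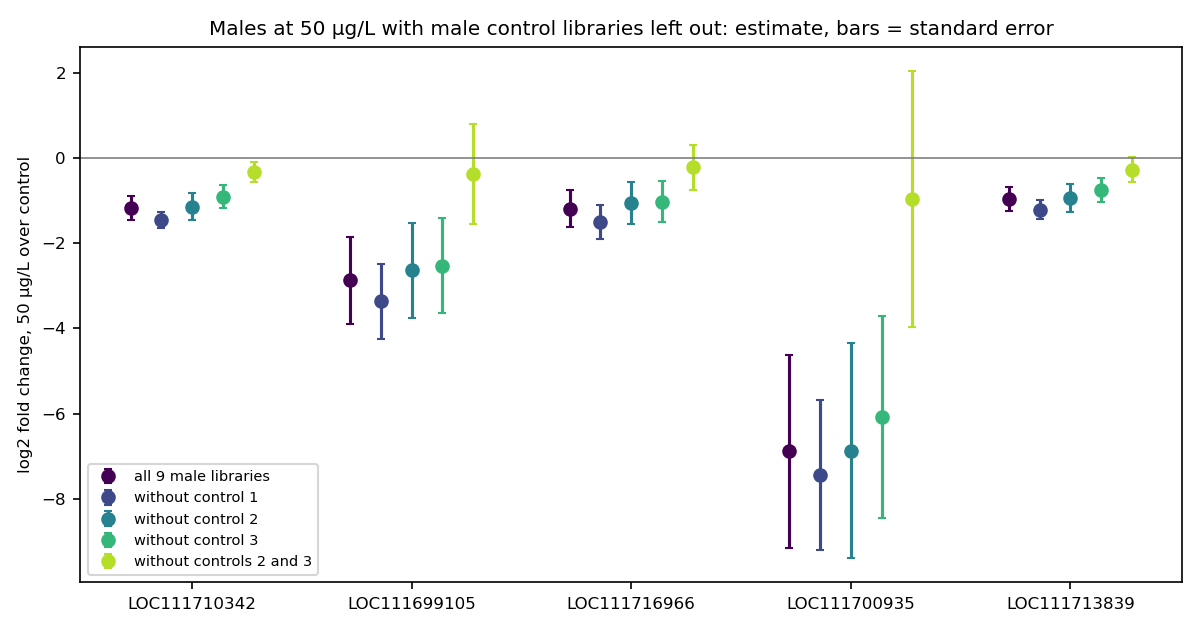
Log2 fold change of the 5 mucin genes in males at 50 µg/L over control males, with all libraries and with control libraries left out (edgeR estimate, bars are standard errors). All 5 estimates were between -0.97 and -0.22 when control replicates 2 and 3 were left out, and lower than with all libraries when replicate 1 was left out.

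A further 2 genes named integumentary mucin C.1-like, after a mucin of frog skin, went in opposite directions between the sexes. They come from the study's list of called genes, as does the galactosyltransferase named next, so no gene that was unchanged could enter. LOC111711799 was at 128, 99.2 and 162 CPM in control females, at 79.8, 79.0 and 33.6 CPM at 0.5 µg/L, and at 30.5, 38.7 and 37.8 CPM at 50 µg/L. In males it was at 609, 191 and 280.1 CPM in controls, at 319, 388 and 413 CPM at 0.5 µg/L, and at 181, 178 and 177 CPM at 50 µg/L. It was thus higher in all male than in all female libraries, and in both sexes all libraries at 50 µg/L were below all controls. The log2 fold change at 50 µg/L was -1.81 ± 0.31 in females, which chose it, and -1.01 ± 0.34 in males (adjusted p = 0.104, edgeR, not called). LOC111712797 was at 64.3, 70.1 and 50.9 CPM in control females, at 47.2, 53.8 and 30.5 CPM at 0.5 µg/L, and at 26.8, 26.5 and 52.8 CPM at 50 µg/L. In females, which did not choose it, the groups overlapped, and the log2 fold change at 50 µg/L was -0.75 (95% interval -1.37 to -0.13, adjusted p = 0.33, edgeR, not called). In males it was at 11.4, 29.6 and 18.1 CPM in controls, at 10.9, 9.21 and 12.6 CPM at 0.5 µg/L, and at 2.51, 5.22 and 8.83 CPM at 50 µg/L, the comparison that chose it. At 0.5 µg/L, LOC111712797 was called higher in females (log2 fold change 1.97 ± 0.39), as were 20.7% of all genes. LOC111711799 was called lower (-2.58 ± 0.37), as were 40.8% of all genes. In the 4 comparisons with controls 0 of the 2 were called by edgeR. The unadjusted p (edgeR) was under 0.05 in 5 of the 8 tests, which include the comparisons that chose the genes. Over all genes at 50 µg/L, it was under 0.05 for 1943 of 15555 in females and 4752 of 17492 in males.

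LOC111709653, named as the enzyme that adds galactose to the first sugar of mucin-type O-linked chains, was higher in every female library than in any male library. The 5 mucins share this trait, and LOC111709653 is also 1 of the 551 female-high genes. Unlike the 5 mucins, LOC111709653 overlapped between males at 50 µg/L and control males. It was at 30.05 to 42.4 CPM in the 9 female libraries, at 0.737, 16.5 and 20.3 CPM in control males, at 0.474, 6.10 and 9.50 CPM in males of the lower dose and at 0.456, 0.580 and 1.47 CPM in those of the higher dose. Replicate 1 was again the low library among controls and at 0.5 µg/L. The gene was called higher in females at 0.5 µg/L (log2 fold change 2.79 ± 0.78, adjusted p = 0.00528, edgeR), as were 20.7% of all genes. The 4 genes of the yolk and germline, named above as higher in females, were also called, which adds nothing to that choice. No gene named for the peritrophic matrix was in the list.

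The genes whose level was most like that of a mucin were found by Pearson's r of log2(CPM + 1) over the 9 libraries of the sex in which the mucin was listed. They are a description, since the 9 libraries share groups, flow cells and the female-high transcripts described above. LOC111697205 was most like LOC111712047 (r = 0.967), LOC111716445 (0.958) and LOC111707713 (0.957) in females, 3 genes with no name in the sources used, and 44 of 15554 genes had an r over 0.9. All 3 were also lower in females than in males at 0.5 µg/L, by log2 fold changes of -2.98, -4.37 and -3.20, where 55.9% of all genes were below 0. In males, between 893 and 1712 of 17491 genes had an r over 0.9 with each of the 5 other mucins. LOC111699105 was most like cyclin-A2-like (LOC111714223, r = 0.997), which drives the cell cycle, and abrupt-like (LOC111694928, r = 0.997), named after a transcription factor of *Drosophila*. LOC111716966 was most like mcm7-like (LOC111694958, r = 0.994), part of the helicase that starts DNA replication. LOC111710342 was most like LOC111715224 (r = 0.996) and the kinase PLK2-like (LOC111705379, r = 0.993). LOC111713839 was most like ATAD2-like (LOC111709811, r = 0.993), and the 3 genes most like LOC111700935 (LOC111708994, LOC111707005 and LOC111707695, each r = 0.996) have no name in the sources used. The most similar genes left out here are uncharacterized or have no name in the sources used. Names came only from the study's list of called genes, so that list set which genes could be named. All 15 genes, 3 for each of these 5 mucins, had a positive log2 fold change of females over males at 0.5 µg/L, where 55.9% of all genes were below 0. They were picked for following the 5 mucins, which are higher in females, so nothing is read from this.

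Among themselves, the 5 mucins had r between 0.76 and 0.97 over the 9 male libraries, and between -0.28 and 0.66 over the 9 female libraries, where they varied little. With LOC111697205 their r ran from 0.00068 to 0.49 in males. The sources used here do not give how reads that fit several genes were assigned, so the split of reads among mucins of the same name is uncertain.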

How the data were processed

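The authors deposited raw read counts per gene. Per the paper's methods, single-end reads were trimmed with Trimmomatic (Phred score above 30, reads under 36 bp removed), aligned to the Eaff_2.0 assembly with STAR and counted with featureCounts. The 6 genes and the other gene lists were chosen with earlier results of these data known. The genes named are the members, the list genes called in a comparison and, for each member, the 3 most like it. No genome, annotation or sequence was used here, so gene names are those of the study.

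The 9 libraries of each sex were fitted with edgeR 4.0.16 in R 4.3.3 (filterByExpr, TMM factors, robust quasi-likelihood test, Benjamini-Hochberg over all genes), and the sexes were compared in a fit of all 18 libraries. Calls required an adjusted p of at most 0.05 and at least 2-fold. Alternatives were DESeq2 1.42.0, a likelihood ratio test, other size factors, no filter, a replicate block, all 18 libraries, a flow cell term and leaving out libraries. The labels do not say whether replicates came from separate cultures, so p-values measure the spread between these pools. No 2 replicates were copies (chi-square per degree of freedom at least 4.58). Replicates with the same number deviated together between control males and those of the lower dose (correlations 0.73, 0.40 and 0.50), and there the block changed no call. Replicates 2 and 3 of these groups also did so across numbers (0.47 and 0.42), so the split is of replicate 1 from the others. On simulated counts, 200 genes with a mean of at least 5 CPM were given changes well above the 2-fold threshold. The test recovered 99% in both comparisons of females, 88.5% in males at 0.5 µg/L, 87.5% at 50 µg/L and 92% between the sexes, with 2 to 9 false calls. Smaller changes, genes at lower levels and a split among male libraries were not simulated, so these shares do not hold for them.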

Additional observations from a re-analysis of the deposited data

How the results depend on the processing

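The number of genes called depended on the test. In females at 0.5 µg/L it was 0 with edgeR's quasi-likelihood test, 5 with DESeq2, 5 with the likelihood ratio test and 0 to 3 with 1 replicate left out, the 3 being without control replicate 2. In females at 50 µg/L it was 1, and became 143 with DESeq2, 133 with the likelihood ratio test, 3 with no filter, 4 with all 18 libraries, 0 with the flow cell term and 0 to 72 with 1 replicate left out, the 72 being without control replicate 2. In males at 0.5 µg/L it was 0, with 2 by DESeq2 and 7 by the likelihood ratio test. In males at 50 µg/L it was 128, and became 1959 with DESeq2, 1576 with the likelihood ratio test, 273 with no filter, 2112 with all 18 libraries, 0 with the flow cell term, 27 without control replicates 2 and 3, and 0 to 4077 with 1 replicate left out. Leaving out 1 library of males at 50 µg/L gave 2, 0 and 9 calls, and leaving out control 2 or 3 gave 0 and 8. Replicates with the same number did not deviate together outside the lower dose of males, and the replicate block gave 0 calls in females at 50 µg/L and 1668 in males at 50 µg/L. Between the sexes 11138 genes were called, and 9776 to 11930 under the alternatives. The cause of these differences was not tested.

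For the mucins, estimates near 0 changed sign. In females at 0.5 µg/L, LOC111710342 was at -0.0041 and LOC111713839 at -0.012 with all 18 libraries, LOC111713839 was at -1.0e-04 with the flow cell term, and with 1 replicate left out LOC111710342 ran from -0.014 to 0.046, LOC111713839 from -0.014 to 0.042 and LOC111716966 from -0.064 to 0.18. In females at 50 µg/L, LOC111713839 was at -6.4e-04 with no filter, -0.041 with all 18 libraries and -0.0060 with the flow cell term, and with 1 replicate left out it ran from -0.027 to 0.052 and LOC111716966 from -0.0036 to 0.26. In males at 50 µg/L, LOC111697205 was at 0.11 with the flow cell term and ran from -0.42 to 0.049 with 1 replicate left out. In males at 0.5 µg/L, the 5 other mucins turned positive without control replicates 2 and 3 (LOC111710342 0.70, LOC111699105 1.89, LOC111716966 0.38, LOC111700935 5.56 and LOC111713839 0.43). Between the sexes, LOC111699105 lost its call with only the 6 libraries at 0.5 µg/L (adjusted p = 0.060, edgeR), and LOC111713839 gained one without replicate 3 of males (log2 fold change 1.07). The flow cell of males at 50 µg/L, the 17 to 50 counts of LOC111697205 in most female libraries, and 12 counts in all of LOC111700935 in males at 50 µg/L limit these results.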
